A study of Mus musculus with 2 samples.

Results

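The 8 genes described here encode parts of the basolateral ion transport machinery of the intestinal epithelium. They are the sodium pump subunits Atp1b1, Atp1b3 and Fxyd3, the potassium channel subunits Kcnq1, Kcne3 and Kcnn4, and the cotransporters Slc12a2 and Slc4a4. They were chosen as a named set and not by a rule on their values, although earlier results of these data were known. All 8 were found among 43346 Ensembl genes after identifiers were matched to GENCODE symbols. Poly(A) RNA was measured in the small intestine of 1 adult female C57BL/6J mouse aged 10 weeks, and no genotype, treatment or time was compared. The labels give 1 biological replicate with 2 technical libraries, called the first (technical replicate 1) and the second (technical replicate 2, made in 2015). The labels name no segment of the small intestine and no cell fraction. Every difference below is therefore a difference between 2 libraries of 1 tissue sample, and no value describes variation between mice.

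Transporting epithelia keep a steep sodium gradient with the sodium pump, an alpha subunit with the catalytic cycle, a beta subunit needed for folding and delivery to the membrane, and a small FXYD protein that tunes its kinetics. Basolateral potassium channels return the potassium that the pump brings in and hold the membrane voltage negative, which drives apical chloride exit and sodium-coupled uptake. Basolateral cotransporters load the cell with chloride (Slc12a2) or bicarbonate (Slc4a4) for secretion across the apical membrane.

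The libraries differed in composition in ways that touch every value below. The gene tables held 28277864 and 24509856 expected counts in the first and the second library. Mitochondrially encoded genes held 49.2% and 11.4% of all TPM (a level per transcript length with the same total in every library), and nuclear protein-coding genes held 26.8% and 75.6%. The ratio between the libraries also moved with base composition. Among tested nuclear protein-coding genes whose most abundant transcript was 40 to 45% GC, the median log2 ratio of scaled counts, second over first library, was -1.52 over 2642 genes. It was 1.43 over 3727 genes at 50 to 55% GC and 5.83 over 607 genes at 60% GC or more. Enterocyte markers, which check the tissue label, were present at 1 TPM or more for 6 of 6 genes in both libraries, with summed levels of 6469 and 11191 TPM. Pancreatic acinar markers were also present, 7 of 7 genes in both libraries, with summed levels of 2055 and 10643 TPM, and smooth muscle markers summed to 28.26 and 635 TPM. Goblet cell markers summed to 388 and 10942 TPM. Markers of crypt stem and cycling cells summed to 198 and 296 TPM. The sums of these lists were higher in the second library on the TPM scale, although the enterocyte marker Sis was lower there, at 2598 and 1226 TPM. As TPM over nuclear protein-coding genes alone, the enterocyte sum was lower in the second library, at 24149 and 14801, and so was the crypt sum, at 739 and 391. Members of both lists went both ways on that scale. Fabp2 (11914 and 6941), Sis and Slc5a1 were lower in the second library, while Alpi (164 and 2016), Anpep and Vil1 were higher. Lgr5, Olfm4, Mki67 and Top2a were lower, while Smoc2 and Ascl2 were higher. The sums of pancreatic acinar, smooth muscle and goblet cell markers were still higher there, although the acinar markers Amy2a5 and Pnlip were lower. The part of these cell types in the levels of the 8 genes was not tested. In whole tissue, fewer cells of a type and less RNA per cell cannot be told apart.

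Of the 8 genes, 7 reached 1 TPM in the first library and all 8 in the second, so 7 did so in both. Atp1b1 stood far above the rest and held 86.5% and 84.8% of the summed TPM of the 8 genes. The mean level over the 2 libraries, as log2(TPM + 1) with the SD over these technical libraries, was 9.85 ± 0.087 for Atp1b1, 5.65 ± 0.083 for Kcne3 and 5.22 ± 0.52 for Slc12a2. It was 4.81 ± 0.0062 for Atp1b3 and 3.90 ± 0.13 for Slc4a4, and the lowest levels were 3.02 ± 2.02 for Fxyd3, 2.93 ± 2.00 for Kcnq1 and 1.77 ± 2.50 for Kcnn4. The step from Atp1b1 to Kcne3 and the step from Atp1b3 to Slc4a4 were larger than the spread of either neighbour. The steps from Kcne3 to Slc12a2 and from Slc12a2 to Atp1b3 were smaller than the spread of Slc12a2, and Fxyd3, Kcnq1 and Kcnn4 could not be ordered against their neighbours beyond the spread. The first library alone gave the same order, with Kcne3 at 47.16 and Slc12a2 at 47.13 TPM nearly equal. In the second library alone Slc4a4 ranked behind Fxyd3 and Kcnq1. With 2 technical libraries such a spread is a coarse guide and is no test.

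**Figure D1:**
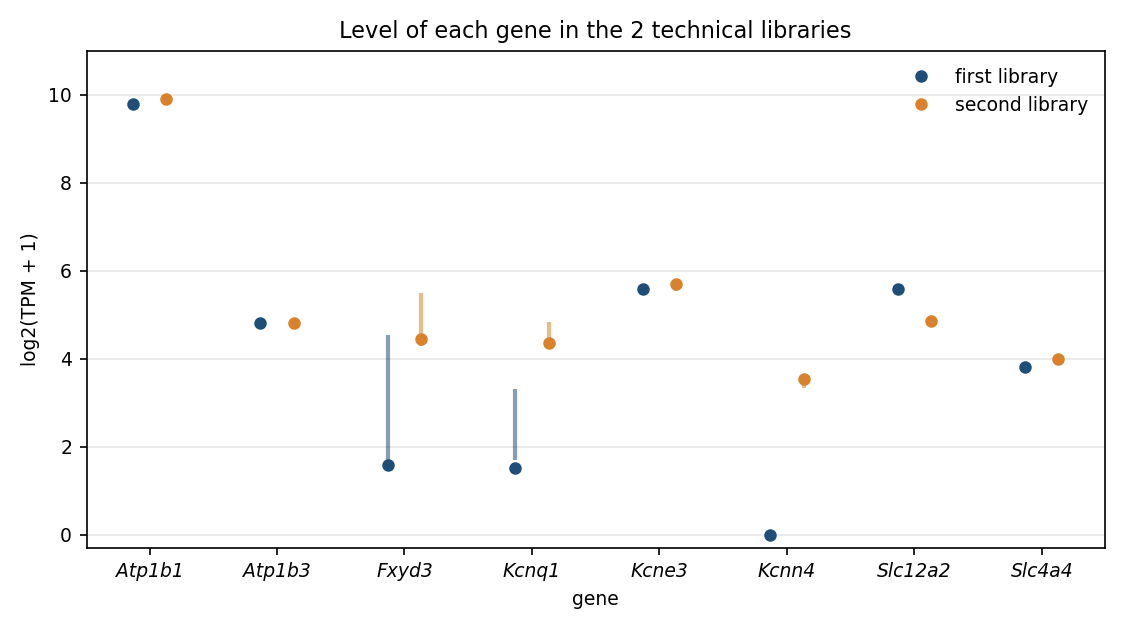
Level of each gene as log2(TPM + 1) in the first (blue) and the second (orange) library, with vertical bars for the deposited interval where one is visible. Atp1b1 lies near 10 in both libraries, while Fxyd3, Kcnq1 and Kcnn4 lie higher in the second library than in the first.

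On scaled counts, 3 of the 8 genes (Fxyd3, Kcnq1 and Kcnn4) were higher in the second library and 4 (Atp1b1, Atp1b3, Slc12a2 and Slc4a4) were higher in the first. A gene was counted where a two-sided exact binomial test on the counts gave a Benjamini-Hochberg adjusted p under 0.05 and the ratio was 2-fold or more. By the same rule 40.2% of 15195 tested genes were higher in the second library and 27.4% were higher in the first. Kcne3 passed the adjusted p but not the fold. When total library sizes replaced TMM, Slc12a2 alone of the 4 was past 2-fold toward the first library, and the log2 ratios were -0.42 for Atp1b1, -0.43 for Atp1b3 and -0.31 for Slc4a4. All 8 genes passed the adjusted p at any fold, as did 88.7% of all tested genes, so passing it sets none of them apart. The median log2 ratio was -0.96 over the 8 genes and 0.27 over all tested genes. Counting error alone enters this test, which sets 1 library against another and no condition against another, because 1 library per side gives no spread between libraries. The reads carry no molecular identifiers and cannot be taken as independent molecules, so even the counting error may be understated.

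Apart from Atp1b1, the direction went with base composition. The 5 genes whose most abundant transcript was under 50% GC (Slc12a2 at 44.2%, Slc4a4 at 45.9%, Kcne3 at 47.2%, Atp1b3 at 47.7% and Atp1b1 at 49.5%) all had negative log2 ratios. The 3 genes above it (Fxyd3 at 51.0%, Kcnq1 at 56.9% and Kcnn4 at 60.4%) all had positive ones. At the 49.5% GC of Atp1b1 the fitted trend of the nuclear genes was already positive, at 0.23, so its negative ratio went against the trend. With the mean GC of all annotated transcripts the split at 50% does not hold, since Atp1b1 is then at 53.3%, above Fxyd3 at 50.4%. When the trend of the nuclear genes on the GC of the most abundant transcript was removed, 2 of the 8 genes (Fxyd3 and Kcnn4) were higher in the second library and 1 (Atp1b1) was higher in the first, against 15.2% and 13.9% of 15137 tested genes. The Kcnn4 call rests on the prior count over 0 counts in the first library, and against a floor of 3 counts its bound was under 2-fold. The other 5 kept an adjusted p under 0.05 but fell under 2-fold. The median log2 ratio after removal was -0.60 for the 8 genes and -0.024 for all tested genes.

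**Figure D2:**
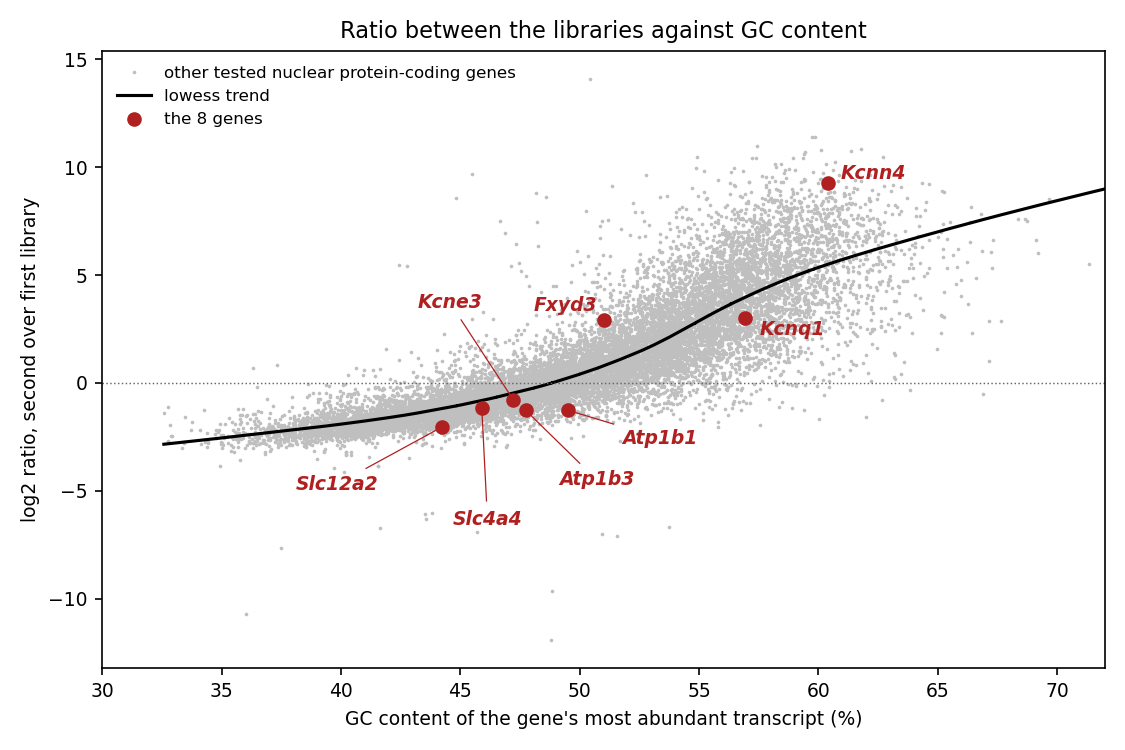
Log2 ratio of scaled counts, second over first library, against the GC content of each gene's most abundant transcript in percent, with grey points for other tested nuclear protein-coding genes, the lowess trend in black and the 8 genes in red. Atp1b1 and Slc12a2 lie under the trend, Fxyd3 and Kcnn4 lie above it, and Kcnq1 lies under it although its ratio is positive. The value of Kcnn4 rests on a prior count, since the first library held 0 counts.

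Atp1b1 encodes the main beta subunit of the epithelial sodium pump and lies on chromosome 1 from 164437109 to 164458355, minus strand (mm10). It was present at 884 TPM in the first and 962 TPM in the second library. It held rank 30 and rank 101 among 21461 nuclear protein-coding genes. The TPM values were close, whereas the counts were 62492 and 40476 and the scaled log2 ratio was -1.26 ± 0.0092 (counting SE). The scales part because a smaller share of TPM belonged to nuclear protein-coding genes in the first library. Of the 8 genes, Atp1b1 alone was past 2-fold toward the first library after the trend on the GC of the most abundant transcript was removed, with a log2 ratio of -1.49. With the mean GC of all annotated transcripts the log2 ratio of Atp1b1 was -3.02, and Slc4a4 (-1.06) was past 2-fold as well. Nearly all of its TPM lay in the transcript Atp1b1-201, 99.98% in the first library and 91.4% in the second. The short coding transcript Atp1b1-203 took 0.02% in the first and 7.83% in the second library. Its exons share 575 bases (18.7% of its exonic bases) with Nme7 on the opposite strand, and Nme7 stood at 3.58 and 6.96 TPM.

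Atp1b3 encodes a further beta subunit, on chromosome 9 from 96332655 to 96364442, minus strand. Its level was 27.2 TPM in the first and 27.0 TPM in the second library, the smallest difference in TPM among the 8 genes. The counts were 1442 and 925, and the scaled log2 ratio was -1.27 ± 0.061, with a Benjamini-Hochberg adjusted p of 6.05e-100 by the exact binomial test. Taking out the GC trend left a log2 ratio of -0.95, under 2-fold. The level of Atp1b1 was 32.5 times that of Atp1b3 in the first library and 35.6 times in the second, nearly the same ratio in TPM. The ratio was not kept under GC removal. The log2 ratios were then -1.49 for Atp1b1 and -0.95 for Atp1b3 with the GC of the most abundant transcript. With the mean GC of annotated transcripts they were -3.02 and -0.20. Atp1b3-201 held 99.1% and 100% of the gene's TPM.

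Fxyd3 encodes a small single-pass regulator of the pump and lies on chromosome 7 from 31068172 to 31076704, minus strand. It had 14 counts in the first and 170 in the second library, or 2.01 and 20.9 TPM. The deposited interval was wide in the first library, from 1.79 to 22.3 TPM, and ran from 18.5 to 44.2 TPM in the second, so the intervals overlapped. The log2 ratio of scaled counts was 2.93 ± 0.39 (adjusted p of 4.02e-22, exact binomial test, Benjamini-Hochberg). With the GC trend taken out it was 2.13 (adjusted p of 1.95e-10, exact binomial test, Benjamini-Hochberg). The libraries also divided the gene among different transcripts. In the second library Fxyd3-201 held 74.7% of the TPM and the retained-intron transcript Fxyd3-202 held 17.2%, and both were listed at 0 in the first. In the first library Fxyd3-209 held 76.0% and the retained-intron transcript Fxyd3-207 held 24.0%, on 7 counts each, and in the second they held 0.27% and 3.30%. A split of 14 counts fixes no isoform share closely. Exons of Fxyd3 share 2059 bases (42.5%) with Lgi4 on the opposite strand, which had 4 and 47 counts. The sources used here do not say whether counting used strand, so reads of the 2 genes may not have been kept apart.

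The coding sequence of the long transcript Fxyd3-205 is shown because Fxyd3-201, which led in the second library, is annotated as coding over its end only, 267 bases on chr7:31070701-31073621, minus strand (mm10, GENCODE M21). Capitals mark the last 99 bases, the only part annotated as coding in Fxyd3-201. Fxyd3-205, which held 0% of the gene's TPM in the first and 2.74% in the second library, was chosen for its complete coding sequence after the values were seen.
Fxyd3-205: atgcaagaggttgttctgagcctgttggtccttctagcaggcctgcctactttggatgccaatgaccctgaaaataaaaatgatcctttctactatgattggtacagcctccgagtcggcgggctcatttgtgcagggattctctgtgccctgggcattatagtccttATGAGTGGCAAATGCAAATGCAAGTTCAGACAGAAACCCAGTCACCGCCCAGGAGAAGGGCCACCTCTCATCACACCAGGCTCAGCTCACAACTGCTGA

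Of 10 other pump subunits, 6 were tested, 4 of these were called toward the second library and 0 toward the first, and the median log2 ratio was 4.88. Against the GC trend, 1 of the 6 (Fxyd5) was higher in the second library, 5 were under 2-fold or did not pass, and the median was 0.83. Fxyd5, another regulator of the pump, was at 0.26 and 17.5 TPM, from 5 and 245 counts. Fxyd1, known best from heart and muscle, was at 0.10 and 14.5 TPM, from 1 and 107 counts. The level of Fxyd3 was 7.73 times that of Fxyd5 in the first library and 1.19 times in the second, and Fxyd4 had 0 counts in both. The first-library ratio rests on 14 counts of Fxyd3 and 5 of Fxyd5, so it is not fixed closely. The Fxyd5 level there lay under its own deposited interval of 0.52 to 1.99 TPM.

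Kcnq1 encodes the pore subunit of a voltage-gated potassium channel, on chromosome 7 from 143106362 to 143427042, plus strand. It had 83 counts in the first and 1038 in the second library, or 1.86 and 19.3 TPM. The deposited intervals, 2.22 to 8.85 TPM and 18.9 to 27.6 TPM, did not overlap; they centre on a posterior mean, so the listed TPM can lie outside them. The log2 ratio of scaled counts was 3.01 ± 0.16 (adjusted p of 1.04e-130, exact binomial test, Benjamini-Hochberg). The GC trend at its 56.9% GC was 3.97, so removal of the trend turned the direction, to a log2 ratio of -0.96 (adjusted p of 2.62e-07, exact binomial test, Benjamini-Hochberg), under 2-fold. With the mean GC of all annotated transcripts in place of that of the most abundant one, the log2 ratio was 0.47. The direction of the Kcnq1 difference thus depended on how base composition was treated.

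The leading transcript of Kcnq1 also differed between the libraries. Kcnq1-202 held 89.2% of the TPM in the first library, on 66.04 estimated counts, and 0% in the second. Kcnq1-201 held 10.85% in the first, on 16.96 counts, and 100% in the second, on 1038 counts. Kcnq1-201 carries 2007 coding bases and Kcnq1-202 carries 1323. The 4 exons of Kcnq1-201 that Kcnq1-202 lacks are shown because reads on them can belong only to the first form of this pair. They span chr7:143358710-143363694, plus strand (mm10, GENCODE M21), join to 280 bases at 53.2% GC, and alternate between lower case and capitals from exon to exon.
Kcnq1-201: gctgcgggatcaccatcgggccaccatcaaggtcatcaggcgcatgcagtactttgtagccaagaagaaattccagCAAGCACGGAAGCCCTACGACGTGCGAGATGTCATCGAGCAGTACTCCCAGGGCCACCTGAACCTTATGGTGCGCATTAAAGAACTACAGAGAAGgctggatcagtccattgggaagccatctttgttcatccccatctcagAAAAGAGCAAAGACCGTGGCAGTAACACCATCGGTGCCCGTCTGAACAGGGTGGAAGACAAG

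The antisense transcript Kcnq1ot1 shares 121 exonic bases (2.96%) with Kcnq1 on the other strand and had 80 counts in the first and 40 in the second library. That is nearly as many counts as Kcnq1 itself in the first library, although both libraries placed Kcnq1ot1 at 0.03 TPM because of its great length.

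Kcne3 encodes a small accessory subunit that, bound to Kcnq1, keeps the channel open at resting voltages, the form known from intestinal crypts. It lies on chromosome 7 from 100176502 to 100184869, plus strand. Its level was 47.2 TPM in the first and 51.2 TPM in the second library, from 930 and 843 counts. The log2 ratio of scaled counts was -0.77 ± 0.069 (adjusted p of 4.41e-29, exact binomial test, Benjamini-Hochberg), under 2-fold, and it turned to 0.065 when total library sizes replaced TMM. Relative to the GC trend it was -0.30. Kcne3 was thus the member nearest to equal between the libraries on scaled counts. In TPM, the level of Kcne3 was 25.4 times that of its pore partner Kcnq1 in the first library and 2.65 times in the second. The first-library Kcnq1 level of 1.86 TPM lay under its own deposited interval of 2.22 to 8.85 TPM. The change in this ratio depended on how GC content was treated. With the GC of the most abundant transcript removed, the log2 ratios were -0.30 for Kcne3 and -0.96 for Kcnq1. With the mean GC of annotated transcripts they were -0.14 and 0.47.

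The transcripts of Kcne3 were divided differently although the gene level was close. Kcne3-204 held 89.1% of TPM in the first library and 29.8% in the second, on 778.83 and 183.91 counts. Kcne3-201 held 5.48% and 42.3%, and Kcne3-202 held 5.44% and 27.6%. These 3 transcripts start within 1000 bases of the same annotated start site and together held 100% and 99.8% of the gene's TPM. In GENCODE M21 the 4 quantified transcripts carry an identical coding sequence of 312 bases in 1 coding exon, so as annotated there they differ outside it. The models used for counting differ in length from those of M21, at 816 against 1059 bases for Kcne3-204. The coding sequences of the models used for counting were not checked. The first 300 coding bases are shown because all of these transcripts share them in M21 (chr7:100184178-100184477, plus strand, mm10, GENCODE M21), with the start codon in capitals.
Kcne3-204: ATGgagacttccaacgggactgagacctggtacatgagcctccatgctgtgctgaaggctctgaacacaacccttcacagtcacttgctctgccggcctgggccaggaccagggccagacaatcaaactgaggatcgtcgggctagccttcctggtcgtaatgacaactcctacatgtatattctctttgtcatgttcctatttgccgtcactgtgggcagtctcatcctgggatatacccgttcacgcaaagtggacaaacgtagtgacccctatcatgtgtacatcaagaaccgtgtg

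Kcnn4 encodes the calcium-activated potassium channel of intermediate conductance, which calmodulin opens when cell calcium rises. It lies on chromosome 7 from 24370263 to 24386690, plus strand, and has 1 quantified transcript of 60.4% GC. It had 0 counts in the first library and 372 in the second, or 0 and 10.6 TPM. Set against a floor of 3 counts in the first library, the limit that a count of 0 allows (0.142 scaled CPM, counting error only), the second library's Kcnn4 level was at least 80.0-fold higher (adjusted p of 1.51e-80, exact binomial test, Benjamini-Hochberg). With the GC trend taken out it passed the adjusted p (0.0207, exact binomial test, Benjamini-Hochberg). The bound against the same floor was then at least 1.76-fold, a log2 ratio of 0.82, so the 2-fold call after GC removal rests on the prior count of 0.5. A count of 0 was rare for a gene at this depth. Of 1309 protein-coding genes with a second-library count within 20% of that of Kcnn4, 25 (1.91%) had 0 counts in the first library, and the median first-library count was 180.0. It was less rare at this base composition. Of the 108 genes that also lay within 2 GC points, 14 (13.0%) had 0 counts in the first library, and the median count there was 4.

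Of 14 other potassium channels and accessory subunits listed, 10 were tested, 1 (Kcnk5) was higher in the second library and 1 was higher in the first, and the median was -0.46 on the log2 scale. Relative to the GC trend 0 were called toward the second and 2 toward the first (median -0.047). Kcnk5, a two-pore channel opened by alkaline pH, was at 1.91 and 38.4 TPM. Its log2 ratio of 3.05 became 0.054 once the GC trend was taken out. The level of Kcnk5 was 1.03 times that of Kcnq1 in the first library and 1.98 times in the second. Kcnk1, of the same channel family, was at 8.58 and 12.1 TPM. On scaled counts its log2 ratio was -0.78, and -1.92 once the GC trend was taken out. The other accessory subunits Kcne1 and Kcne2 had 0 counts in both libraries, and Kcne4 was at 0.56 and 1.10 TPM. Kcne3 was thus the only one of these 4 accessory subunits above 2 TPM in either library.

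Slc12a2 encodes the sodium, potassium and chloride cotransporter that bumetanide blocks and that loads crypt cells with chloride. It lies on chromosome 18 from 57878678 to 57946821, plus strand. Its level was 47.1 TPM in the first and 27.8 TPM in the second library, and it was the only member whose TPM was clearly lower in the second. The counts were 8828 and 3317, the log2 ratio of scaled counts was -2.04 ± 0.029, and the deposited intervals of 44.8 to 46.7 TPM and 25.7 to 27.5 TPM did not overlap. Its transcript has the lowest GC content of the 8 genes, and with the GC trend taken out the log2 ratio was -0.86, under 2-fold (adjusted p of 3.57e-200, exact binomial test, Benjamini-Hochberg). A single transcript was quantified, so no isoform shift can be read.

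Slc4a4 encodes the electrogenic sodium bicarbonate cotransporter and lies on chromosome 5 from 88886818 to 89239653, plus strand. Its level was 13.0 TPM in the first and 15.0 TPM in the second library, from 2975 and 2077 counts. The log2 ratio of scaled counts was -1.15 ± 0.041 (adjusted p of 3.30e-174, exact binomial test, Benjamini-Hochberg). Relative to the GC trend it was -0.34 with the GC of its most abundant transcript and -1.06 with the mean GC of its annotated transcripts, so the call depended on which GC value was used. The level of Slc12a2 was 3.63 times that of Slc4a4 in the first library and 1.86 times in the second.

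Nearly all of the Slc4a4 signal came from its distal start. Transcripts within 1000 bases of the distal annotated start (chromosome 5, position 88887260) held 13.0 and 14.2 TPM, or 99.92% and 95.1% of the gene. Those at the internal start (position 89027966) held 0.01 and 0.74 TPM, or 0.077% and 4.95%. The leading transcript Slc4a4-207 held 99.89% and 94.6%. The second-library signal at the internal start came from 8.36 counts assigned to the short transcript Slc4a4-204, and the full-length internal form Slc4a4-203 was at 0 in both. The windows around the starts, from 250 bases before to 50 after (RefSeq, GRCm38.p6), also differ in composition. The distal window holds 50 CG dinucleotides, and 0.855% of 32851 promoter windows hold as many or more. The internal window holds 3, and 76.7% of windows hold as many or more.

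The starts lead to different first coding exons, and the coding bases that each form has before the first shared base are shown because they tell the abundant form from the one at 0. The distal form, the one known from pancreas and gut, has 253 such bases of 3240 on chr5:88934750-88954957, and the internal form, known from kidney, has 121 of 3108 on chr5:89028172-89028292 (plus strand, mm10, GENCODE M21). Capitals mark the start codon. Slc4a4-203 was chosen for this comparison after the values were seen.
Slc4a4-207: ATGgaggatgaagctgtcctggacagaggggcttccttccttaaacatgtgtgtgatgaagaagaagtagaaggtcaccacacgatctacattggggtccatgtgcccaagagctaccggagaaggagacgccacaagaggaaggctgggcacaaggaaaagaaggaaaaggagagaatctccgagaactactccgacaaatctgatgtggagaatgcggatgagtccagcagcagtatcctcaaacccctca
Slc4a4-203: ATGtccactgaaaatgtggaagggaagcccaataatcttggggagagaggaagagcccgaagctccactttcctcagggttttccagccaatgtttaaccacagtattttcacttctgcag

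**Figure D3:**
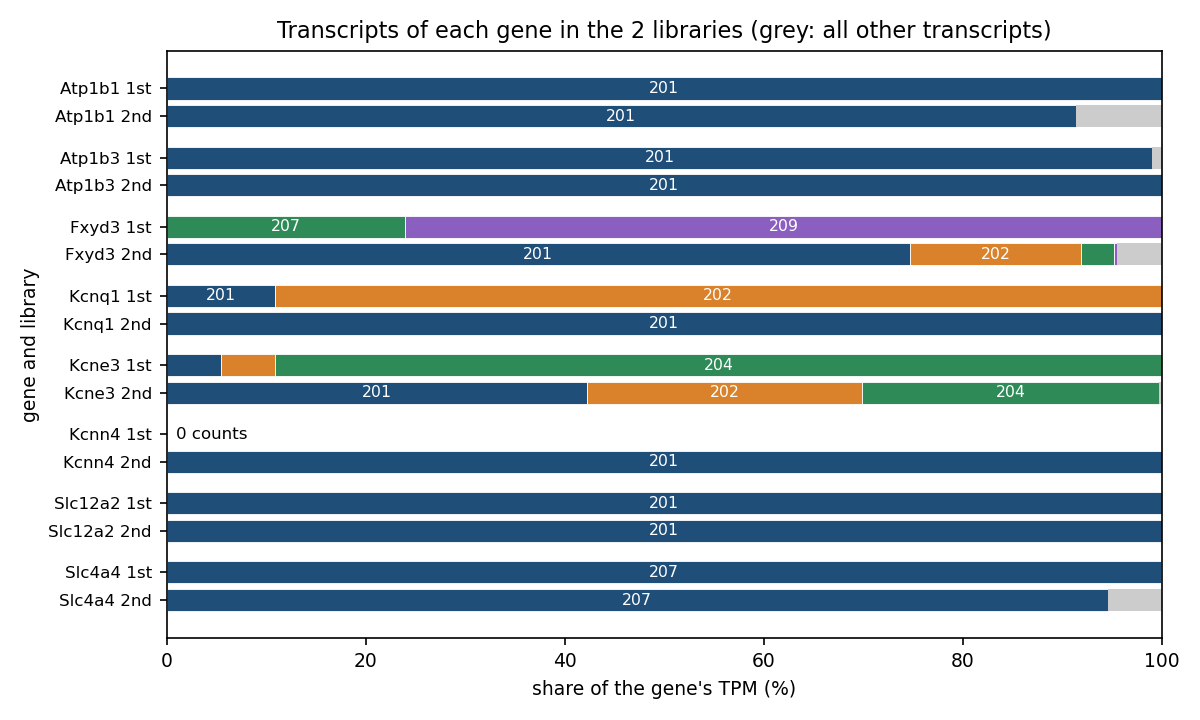
Share of each gene's TPM in percent held by its transcripts in the first and the second library, with transcript numbers as in the annotation and grey for all other transcripts together. Atp1b1, Atp1b3, Slc12a2 and Slc4a4 are led by the same transcript in both libraries, while Fxyd3, Kcnq1 and Kcne3 are led by different ones, and Kcnn4 has 0 counts in the first.

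Of 10 other basolateral cotransporters, exchangers and channels, 9 were tested, 6 of which were called toward the second library and 1 (Slc4a7) toward the first, and the median was 3.29 on the log2 scale. Once the GC trend was taken out, 2 (Slc4a2 and Clcn2) were higher in the second and 0 in the first, and the median was -0.24. With the mean GC of annotated transcripts Slc4a2 fell under 2-fold, at a log2 ratio of 0.85, while Clcn2 was at 1.47. Slc4a7, an electroneutral sodium bicarbonate cotransporter, was at 79.9 and 49.0 TPM, 6.14 and 3.28 times the level of Slc4a4. Slc12a7, a potassium chloride cotransporter, was at 2.44 and 58.1 TPM. In TPM, the level of Slc12a2 was therefore 19.3 times that of Slc12a7 in the first library but 0.478 times in the second. Their most abundant transcripts differ in GC content, at 44.2% for Slc12a2 and 54.6% for Slc12a7. The log2 ratios of scaled counts were -2.04 for Slc12a2 and 3.29 for Slc12a7. Once the GC trend was taken out they were -0.86 and 0.63, both under 2-fold. The anion exchanger Slc4a2 was at 0.84 and 37.1 TPM, and the chloride channel Clcn2 at 0.67 and 79.7 TPM.

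On the apical side, Cftr, the chloride channel through which the chloride loaded by Slc12a2 leaves, was at 31.9 and 20.5 TPM. The level of Slc12a2 was 1.48 times that of Cftr in the first library and 1.36 times in the second, a close ratio in TPM. With the GC trend taken out the 2 genes parted, with log2 ratios of -0.86 for Slc12a2 and -0.19 for Cftr. Of 8 apical partners, all tested, 3 were called toward the second library and 2 toward the first (median log2 ratio 0.42). Against the GC trend the counts were 2 and 1, with a median of -0.094. The apical anion exchanger Slc26a6 stood at 6.89 and 719 TPM, and the sodium proton exchanger Slc9a3 at 2.47 and 77.7 TPM. The transcript length assigned to Slc26a6, which enters TPM, was 2248 bases in the first and 1101 in the second library. Its log2 ratio of scaled counts was 4.26. With the GC trend taken out it was 1.95, or 1.06 with the mean GC of annotated transcripts. The glucose transporter Slc5a1 was at 344 and 652 TPM, but its log2 ratio of scaled counts was -0.36. The chloride bicarbonate exchanger Slc26a3 was at 106 and 89.6 TPM.

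Among 11 regulators, 10 were tested, 3 were higher in each direction, and the median log2 ratio was -0.42. Relative to the GC trend 1 was higher in the second and 3 were higher in the first (median 0.14). Ahcyl1, which binds and activates Slc4a4, was at 180 and 168 TPM, and Wnk1, a kinase upstream of Slc12a2, at 63.6 and 47.6 TPM. Stk39, the kinase that Wnk1 activates and that acts on Slc12a2, was at 9.66 and 11.01 TPM, and its log2 ratio was -1.06 before and -1.17 after removal of the GC trend, but -0.053 when the mean GC of annotated transcripts was used. Sgk1, which raises pump and channel activity, was at 51.4 and 110 TPM, but its log2 ratio of scaled counts was -0.43. Over all 53 other pathway genes given here, 43 were tested, 17 were called toward the second library and 7 toward the first, and the median was 0.10 on the log2 scale. With the GC trend taken out, 6 were called in each direction (median -0.048). At 1 TPM or more in both libraries stood 19 of these 53 genes, against 7 of the 8 described here.

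**Figure D4:**
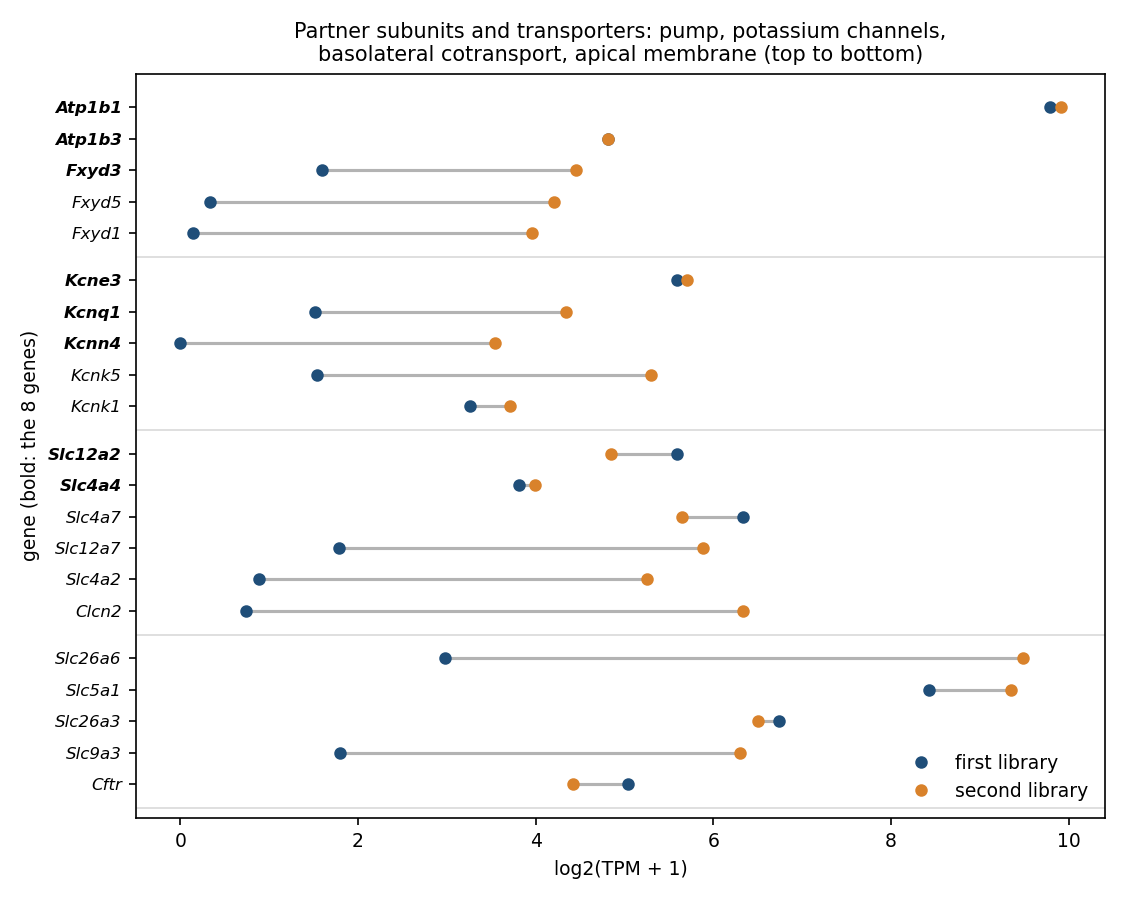
Levels as log2(TPM + 1) of the 8 genes (bold) and of named partner genes in the first (blue) and the second (orange) library, joined by a grey line and grouped from top to bottom as pump, potassium channels, basolateral cotransport and apical membrane. Atp1b1, Atp1b3, Kcne3 and Slc4a4 lie at nearly the same level in both libraries, while Slc12a7, Clcn2 and Slc26a6 lie far apart.

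**Figure D5:**
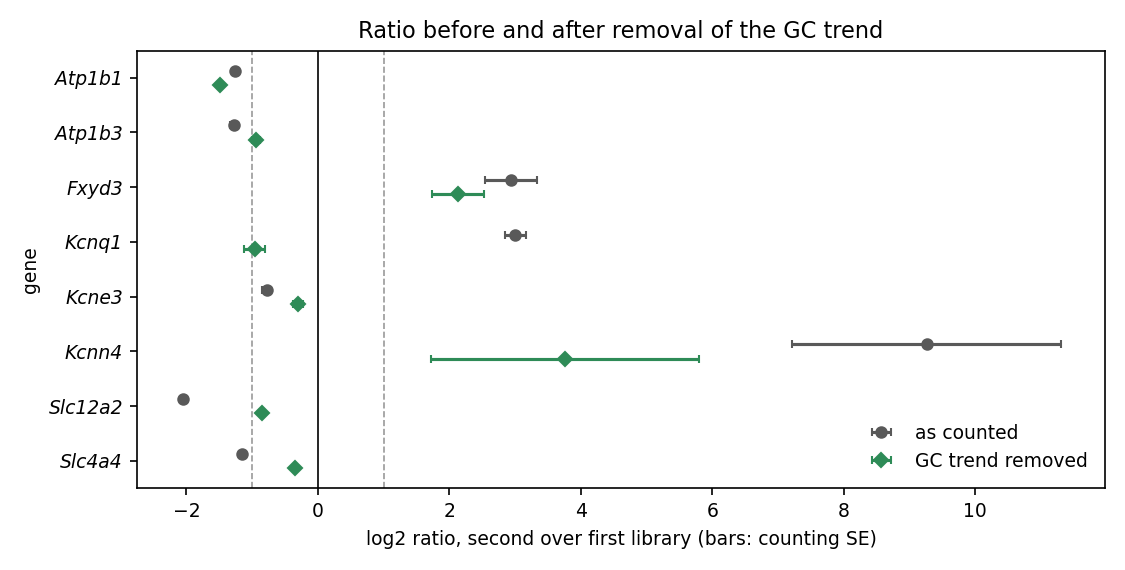
Log2 ratio of scaled counts, second over first library, for each of the 8 genes as counted (grey) and with the GC trend removed (green). Bars are the counting SE and dashed lines mark 2-fold. Removal of the trend moves Kcnq1 across 0, from 3.01 to -0.96, and leaves Fxyd3 at 2.13 and Atp1b1 at -1.49. The values of Kcnn4 depend on the prior count, and its bound against 3 counts after removal is 0.82.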

How the data were processed

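Poly(A) RNA-seq of 1 small intestine was represented by 2 technical libraries, which the labels give the same group; nothing says that they came from separate extractions. Expected counts, TPM and FPKM were deposited per gene in RSEM format, per the file headers, and the isoform share of each transcript was deposited as a percent within its gene. The deposited tables also give bounds of an interval around a posterior mean TPM. The deposited notes name assembly mm10 and annotation M4; the sources used here do not give the aligner or read filters. Each table had 69691 rows, of which 26345 named no Ensembl gene (97 spike-ins, the rest tRNA entries) and held 0 counts. Symbols and positions came from GENCODE M21 on the same assembly (42462 of 43346 genes matched), and GC content had a value for 42721 genes.

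The quasi-likelihood test of edgeR needs residual degrees of freedom, of which a single library per side leaves none. A two-sided exact binomial test was run instead (scipy 1.17.1) on expected counts rounded to whole numbers, for genes with 20 or more counts over both libraries, with the split set by TMM-scaled library sizes (edgeR 4.0.16; factors 0.748 and 1.34) and Benjamini-Hochberg adjustment over all tested genes. Log2 ratios used a prior count of 0.5. A lowess GC trend (statsmodels 0.14.6, span 0.3) was fitted over tested nuclear genes on the GC of each gene's most abundant transcript, a choice made after seeing the data. All 8 genes and any listed pathway gene could be named, and transcripts at 10% or more of a gene's TPM in either library; others named were chosen after their values were seen. A total of 3 genes of the lists are not reported here and were left out of the list counts. The genes and lists were chosen with earlier results of these data known. Alternatives were total, DESeq2 1.42.0 and nuclear library sizes, GC treatment, count and fold minima, prior counts, pseudocounts, FPKM and single libraries. Figures were drawn with matplotlib 3.10.9.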

Additional observations from a re-analysis of the deposited data

How the results depend on the processing

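No paired analysis was possible because both libraries belong to 1 group and no groups were compared. Of the 8 genes, 4 were higher in the first library. That count was 1 with total library sizes, 1 at a fold of 4 or more (7.65% of all tested genes), 2 with the GC trend removed on the mean GC of annotated transcripts (17.6%) and 1 (13.9%) with the GC of the most abundant transcript, a setting added after seeing the data. The count higher in the second library, 3, was 2 with the GC trend removed, on the mean GC (17.5% of all tested genes) or the GC of the most abundant transcript (15.2%). It was 3 under every other setting run, while the share of all tested genes ran from 30.3% at a fold of 4 or more to 51.4% with total library sizes. Total library sizes moved the median log2 ratio of all tested genes by 0.83 and the shares called higher in the second and first library from 40.2% and 27.4% to 51.4% and 10.0%; the 8 genes' median log2 ratio was then -0.12. That median lay at -1.01 with DESeq2 size factors, -0.77 with nuclear library sizes and -0.17 with mean GC removed.

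Directions turned as follows among the 8 genes and the partner genes for which alternatives were computed. With total library sizes the log2 ratio was 0.065 for Kcne3, 0.059 for Kcnk1, 0.48 for Slc5a1 and 0.41 for Sgk1. With mean GC removed it was 0.087 for Slc5a1 and 0.12 for Ahcyl1. With the GC of the most abundant transcript removed it was -0.96 for Kcnq1, 0.23 for Ahcyl1, 0.16 for Wnk1 and 0.11 for Sgk1. Over all 43 tested pathway genes other than the 8, that removal turned 16. The cause was not tested. The number of genes at the TPM minimum in both libraries was 7 at 0.5 TPM and 5 at 5 TPM. The order by level changed for 3 genes without replicate 1 and for 0 without replicate 2, with a pseudocount of 0.1 TPM or with FPKM. Counting error was widest for Fxyd3, Kcnq1 and Kcnn4 in the first library, with 14, 83 and 0 counts, although that library had the larger total. With 2 technical libraries of 1 animal no biological error can be given.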
